A study of Mus musculus with 32 samples.

Results

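Mouse embryonic fibroblasts (MEFs) taken through doxycycline-driven reprogramming in serum medium (FBS) were compared between day 6 and day 3. The comparison used 4 of the 32 libraries of a droplet single-cell RNA study of induced pluripotency. The FBS day 6 group had 2 libraries, replicates A and B, with 359 and 197 cells. The FBS day 3 group had 2 libraries with 230 and 239 cells. All 4 came from MEFs of embryonic age with a labelled treatment of none, read here as none of the small molecules that the protocols name (ascorbic acid, SGC0946, CHIR-99021 and PD-0325901). The general protocols give ESC medium with FBS and leukemia inhibitory factor, irradiated MEFs as feeders and 2 ug/mL doxycycline at day 0, with medium and doxycycline renewed on days 2 and 4; both groups share these conditions up to their day of harvest. The labels do not name the genes that doxycycline switched on, the mouse strain or the number of embryos, and do not say that replicates were separate cultures. The p-values therefore cover differences among libraries, which may be technical. The spread they use was estimated over all 32 libraries in 16 groups. Of the 7645 cells of the series that the authors' feeder list did not hold, 1025 belonged to these 4 libraries, 556 at day 6 and 469 at day 3.

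The cells kept held 3685357 and 2357948 unique molecular identifiers (UMIs) at day 6, against 3558985 and 3275617 UMIs at day 3. A cell had a median of 9148 and 10488 UMIs at day 6, against 14366 and 12427 UMIs at day 3. Listed feeder barcodes were 7.71% and 7.08% of barcodes in the day 6 libraries, against 35.8% and 26.9% in the day 3 libraries, and they were left out. Whether unlisted feeder cells remain among the kept cells was not tested. The 8 fibroblast markers summed to 7034 and 7257 CPM (counts per 1000000 UMIs of the library) at day 6, against 5435 and 5685 CPM at day 3, with all 8 detected in each library. The 6 erythroid markers were at 0 in all 4 libraries. The 8 endothelial markers summed to 6.51 and 5.94 CPM at day 6, against 8.71 and 9.16 CPM at day 3. Of these, Cdh5, Emcn and Cldn5 were at 0 in all 4 libraries, and others had UMIs. Macrophage markers stood apart in 1 library: the 12 markers summed to 9.50 and 144 CPM at day 6, against 26.4 and 23.5 CPM at day 3. In day 6 replicate B, 1 cell held 311 of its 340 macrophage-marker UMIs. Of the barcodes, 1 occurred in both FBS day 3 A and FBS day 6 B, and 4 were shared with the other 28 libraries.

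Reprogramming replaces the expression program of a fibroblast with that of a pluripotent cell through a series of steps that most cells do not complete. Early steps in MEFs are known to involve faster division, loss of mesenchymal character and gain of epithelial genes, while the stem cell network is switched on late and in few cells. Growth arrest through the Ink4a/Arf and p53 pathways is a known barrier, and interferon-response genes are an antiviral program that fibroblasts can switch on after nucleic acid sensing.

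Day 6 differed broadly from day 3. Of 13228 genes tested, 5009 passed an adjusted p under 0.05 (37.9%), 2458 of them higher at day 6 (18.6%) and 2551 lower (19.3%), by edgeR's quasi-likelihood test with Benjamini-Hochberg adjustment and no minimum fold. More than 2-fold changes were called in 1097 genes that rose and 680 that fell. Changes of over 4-fold were called in 411 genes that rose and 145 that fell. The median log2 fold change of all tested genes was 0.00. In 66.2% of tested genes the pair of day 6 libraries did not overlap with the pair from day 3. Levels below are CPM scaled with TMM factors, given per library (n = 2 per group), and log2 fold changes are day 6 over day 3 with their standard error. They sum all kept cells, so a smaller share of expressing cells and less RNA per cell cannot be told apart by them. Genes with near-identical copies or processed pseudogenes, such as ribosomal-protein genes, Eef1a1, Ftl1, Actb, Actg1, Pgk1, Ifit3b and other Ifit genes, are uncertain because the counting could have split their reads.

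**Figure D1:**
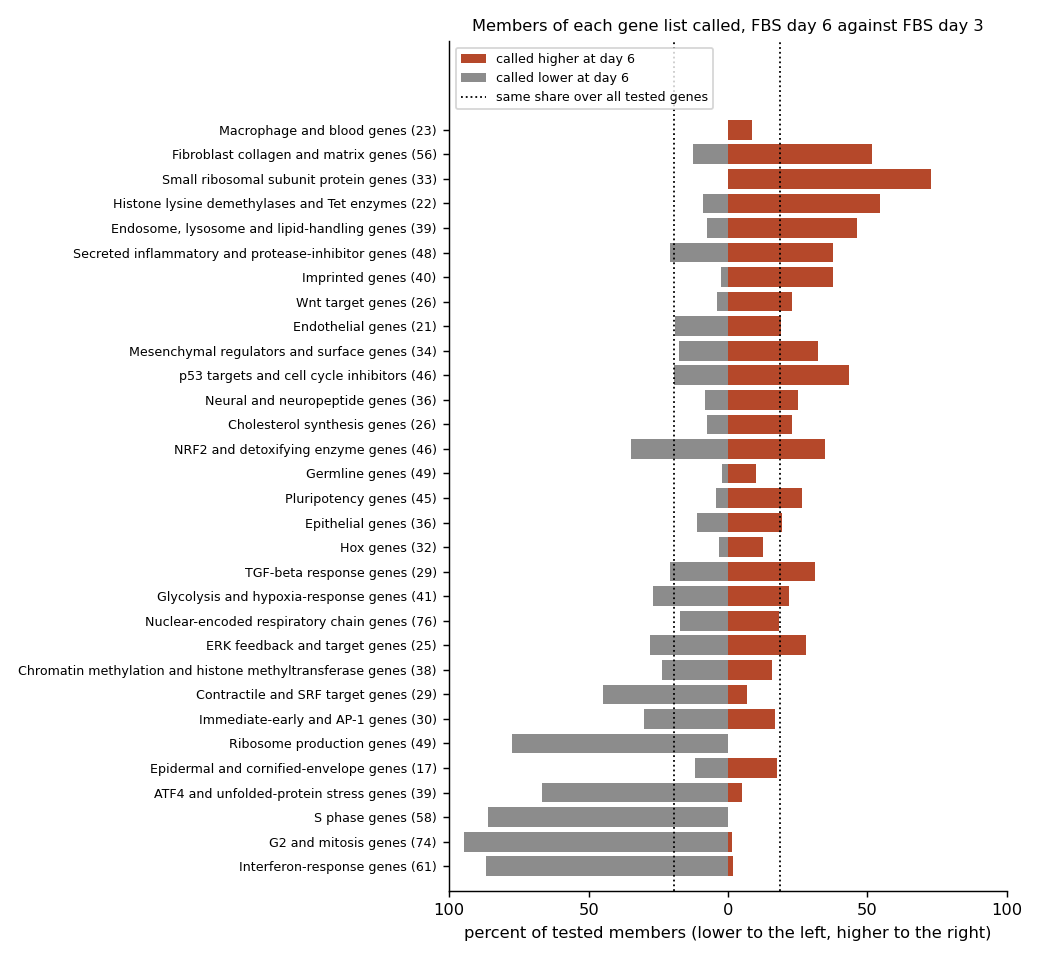
Percent of the tested members of each of 31 gene lists called higher (to the right) or lower (to the left) in FBS day 6 against FBS day 3, with the number tested in parentheses. Dotted lines mark the shares over all tested genes, 18.6% higher and 19.3% lower; interferon-response genes (86.9% lower), G2 and mitosis genes (94.6% lower) and small ribosomal subunit protein genes (72.7% higher) lie far outside them.

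Interferon-response genes were the most strongly lowered list at day 6. Of 61 tested members 53 fell, 1 rose and 7 did not pass, with a median log2 fold change of -2.47. Ifi44, an interferon-induced gene on chromosome 3 (151730922 to 151749960, mm10), was at 1.39 and 1.76 CPM at day 6, against 136 and 128 CPM at day 3. This was an 83.8-fold lower level (log2 fold change -6.39 ± 0.81, edgeR adjusted p = 2.13e-07). Isg15, a ubiquitin-like modifier attached to proteins in the antiviral state (chromosome 4, 156199424 to 156200818), had 2.23 and 2.64 CPM at day 6, against 145 and 101 CPM at day 3 (log2 fold change -5.66 ± 0.84, edgeR adjusted p = 2.85e-06). Both replicates of each day lay together in both genes, and the days did not come near each other.

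Promoters of lowered genes are shown because the members of 2 lists moved together. The 4 printed were chosen from genes of the text whose promoter held a match; Oasl2, Irf7, Xaf1 and Nuf2, which also fell, held none in this window. Each is 300 bases from RefSeq on GRCm38.p6, written 5′ to 3′ on the gene's strand, from 250 bases before to 50 bases after the start. In the first pair capitals mark the core of the interferon-stimulated response element, GAAANNGAA on either strand, and matches can overlap. In the second pair, from genes of mitosis, capitals mark CCAAT, the NF-Y box, or TTTGAA, the cell cycle homology region (CHR), on either strand.
Isg15, chr4:156200769-156201068, minus strand: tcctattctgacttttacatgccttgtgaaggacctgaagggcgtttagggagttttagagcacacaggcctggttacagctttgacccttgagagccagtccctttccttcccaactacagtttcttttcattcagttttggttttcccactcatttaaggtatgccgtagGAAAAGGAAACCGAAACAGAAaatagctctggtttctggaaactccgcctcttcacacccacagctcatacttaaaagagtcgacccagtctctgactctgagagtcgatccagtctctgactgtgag
B2m, chr2:122147437-122147736, plus strand: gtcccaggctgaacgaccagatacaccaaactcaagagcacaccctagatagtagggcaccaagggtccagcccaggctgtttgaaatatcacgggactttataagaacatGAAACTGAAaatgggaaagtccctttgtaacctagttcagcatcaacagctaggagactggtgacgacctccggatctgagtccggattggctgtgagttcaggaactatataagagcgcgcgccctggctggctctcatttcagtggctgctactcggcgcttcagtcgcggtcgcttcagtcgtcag
Prc1, chr7:80294201-80294500, plus strand: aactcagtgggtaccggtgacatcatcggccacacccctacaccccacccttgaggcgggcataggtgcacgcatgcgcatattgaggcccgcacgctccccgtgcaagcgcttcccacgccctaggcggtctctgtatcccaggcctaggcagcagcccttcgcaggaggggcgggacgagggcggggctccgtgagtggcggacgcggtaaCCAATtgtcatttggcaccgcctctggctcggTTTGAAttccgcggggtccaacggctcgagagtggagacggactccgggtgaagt
Plk1, chr7:122159185-122159484, plus strand: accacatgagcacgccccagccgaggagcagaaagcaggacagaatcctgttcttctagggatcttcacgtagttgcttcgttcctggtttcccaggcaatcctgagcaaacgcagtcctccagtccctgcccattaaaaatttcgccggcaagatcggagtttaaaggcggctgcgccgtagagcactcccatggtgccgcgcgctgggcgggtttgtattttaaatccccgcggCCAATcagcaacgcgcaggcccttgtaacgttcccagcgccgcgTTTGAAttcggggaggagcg
A promoter was found for 48 of the 61 tested interferon-response genes, and 26 of these held GAAANNGAA (54.2%), against 2317 of all 27025 promoters of the same length (8.57%). Among G2 and mitosis genes with a promoter, 45 of 60 held CCAAT (75%), against 37.9% of all promoters. TTTGAA was in 41 of those 60 promoters (68.3%), against 18.1% of all. For S phase genes the shares were 57.8% with CCAAT and 17.8% with TTTGAA. A match describes letters only, and the binding of any factor was not measured.

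Members at low and at high levels fell. Oasl2, a 2′-5′ oligoadenylate synthetase-like protein, was at 5.58 and 1.76 CPM at day 6, against 185 and 165 CPM at day 3 (log2 fold change -5.42 ± 0.74, or -6.61 without FBS day 6 A). Irf7, a transcription factor that amplifies the interferon program, was at 5.58 and 7.03 CPM at day 6, against 81.8 and 57.9 CPM at day 3 (-3.50 ± 0.60). Usp18 (-5.19 ± 0.67, or -6.26 without FBS day 6 A), an Isg15 protease, Rtp4 (-4.28 ± 0.63), Trim30a (-4.09 ± 0.56) and Xaf1 (-3.15 ± 0.45) also fell. Ifit1, which binds viral RNA, was at 0.558 and 7.47 CPM at day 6, against 123 and 118 CPM at day 3 (-5.17 ± 0.77), and its estimate ran from -7.66 to -4.01 when a library was left out. Ifit3b had 1 UMI at day 6 and 87 UMIs at day 3, a ratio of 0.0131 with a 95% counting interval of 0.000327 to 0.0748, and its fitted value moved by over 1.5-fold when either day 6 library was left out (-4.76 and -8.42). B2m, the light chain of class I major histocompatibility complexes, fell to 1051 and 1048 CPM at day 6, against 1757 and 2113 CPM at day 3 (-0.88 ± 0.15). Cxcl10, a chemokine, had no UMI at day 6 and was at least 33.7-fold lower than at day 3 when set against 3 UMIs over the group. Its day 3 level was uneven, at 29.9 and 3.45 CPM, and the call was lost without FBS day 3 A (adjusted p = 0.297) and without either day 6 library. Ifitm1, a membrane protein that restricts virus entry, was the single member that rose, to 259 and 272 CPM at day 6, against 44.6 and 40.7 CPM at day 3 (2.63 ± 0.23, edgeR adjusted p = 2.09e-10).

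The lower interferon-response level was seen across cells. The list took a median of 0.412% and 0.415% of a cell's UMIs at day 6, against 0.811% and 0.832% at day 3. The 90th percentile over cells was 0.742% and 0.765% at day 6, below both day 3 medians. Ifi44 was detected in 0.279% and 0.508% of day 6 cells, against 11.3% and 13.0% of day 3 cells, after each cell was thinned to 1000 UMIs. Without thinning it was found in 1.39% and 1.52% of day 6 cells, against 62.2% and 61.1% of day 3 cells. Embryonic stem cells (ESCs) had Ifi44 in 0.725% and 0% of cells without thinning, where the 0 allows up to 1.83% of cells, at medians of 16462 and 14853 UMIs a cell. The listed feeder barcodes, which entered no comparison, differed in the same direction. In them the list took 0.724% and 0.706% of all UMIs at day 6, against 1.68% and 1.67% at day 3, and Ifi44 was at 11.1 and 5.16 per 1000000 UMIs at day 6, against 398 and 474 per 1000000 UMIs at day 3. With listed barcodes kept in the comparison, 57 members fell.

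**Figure D2:**
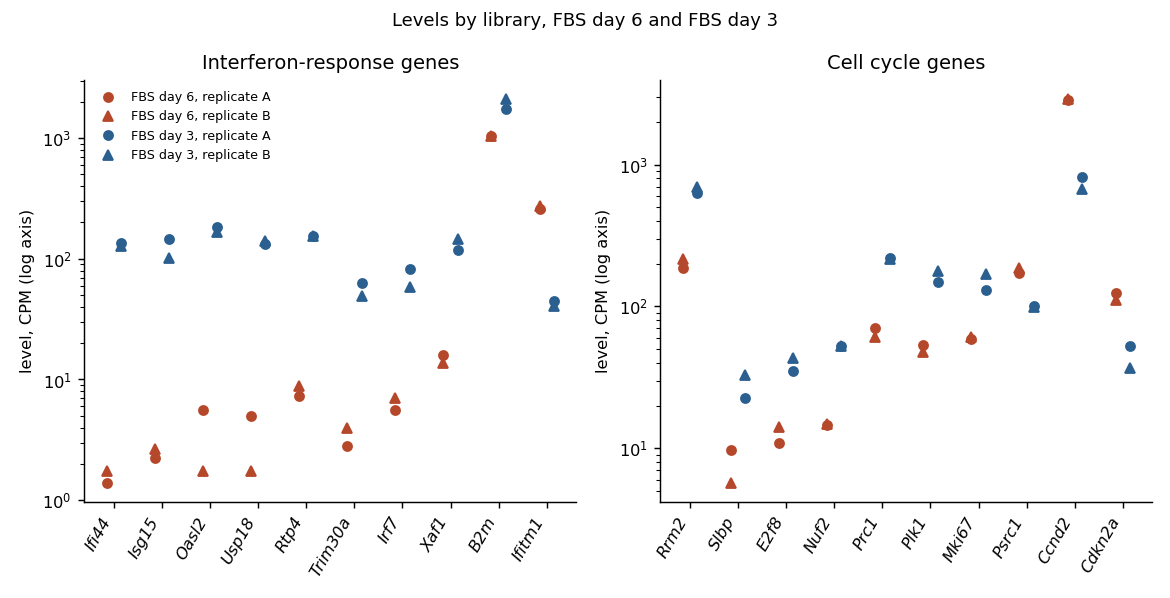
Level in CPM (log axis) of 10 interferon-response genes and 10 cell cycle genes in the FBS day 6 libraries (red) and the FBS day 3 libraries (blue), with a circle for replicate A and a triangle for replicate B. Ifi44 sits at 1.39 and 1.76 CPM at day 6 and near 130 CPM at day 3; Ifitm1, Psrc1, Ccnd2 and Cdkn2a lie above their day 3 values.

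Genes of DNA replication and mitosis fell together by about 2-fold at day 6. Of 58 tested S phase genes 50 fell and none rose (median log2 fold change -1.11). Of 74 G2 and mitosis genes 70 fell and 1 rose (median -1.26). Rrm2, the regulated subunit of ribonucleotide reductase, was at 188 and 214 CPM at day 6, against 626 and 700 CPM at day 3 (log2 fold change -1.73 ± 0.13, edgeR adjusted p = 1.04e-11). Slbp, which binds histone mRNA, fell by 1.77 ± 0.34 on the log2 scale, and E2f8, a repressor of the E2F family, by 1.68 ± 0.26. Prc1, a cross-linker of spindle microtubules, was at 70.6 and 60.6 CPM at day 6, against 218 and 215 CPM at day 3 (-1.71 ± 0.17). The mitotic kinase Plk1 was at 53.5 and 47.9 CPM at day 6, against 148 and 178 CPM at day 3 (-1.67 ± 0.18). Nuf2, a kinetochore protein, had -1.84 ± 0.21. Mki67, the proliferation marker on chromosome 7 (135689784 to 135716361), was at 58.6 and 61.1 CPM at day 6, against 131 and 169 CPM at day 3 (-1.33 ± 0.15). The promoters of Prc1 and Plk1 printed above each hold 1 CCAAT and 1 TTTGAA. Psrc1, a microtubule-associated protein also known as a p53-responsive gene, rose to 172 and 186 CPM at day 6, against 101 and 99.0 CPM at day 3 (0.83 ± 0.09). The promoter of Psrc1, not printed, also holds CCAAT, with 2 matches, but no TTTGAA.

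Within the libraries the division genes changed in the typical cell and less in the upper tail. G2 and mitosis genes took a median of 0.175% and 0.152% of a cell's UMIs at day 6, against 0.873% and 0.893% at day 3. The 90th percentile was 1.47% and 1.11% at day 6, against 1.84% and 1.97% at day 3. S phase genes had medians of 0.158% and 0.134% at day 6, against 0.607% and 0.559% at day 3, with 90th percentiles of 0.784% and 0.890% at day 6 and 0.972% and 1.06% at day 3. Untreated MEFs had medians of 0.213% and 0.264% for G2 and mitosis genes, which were above both day 6 medians. 

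**Figure D3:**
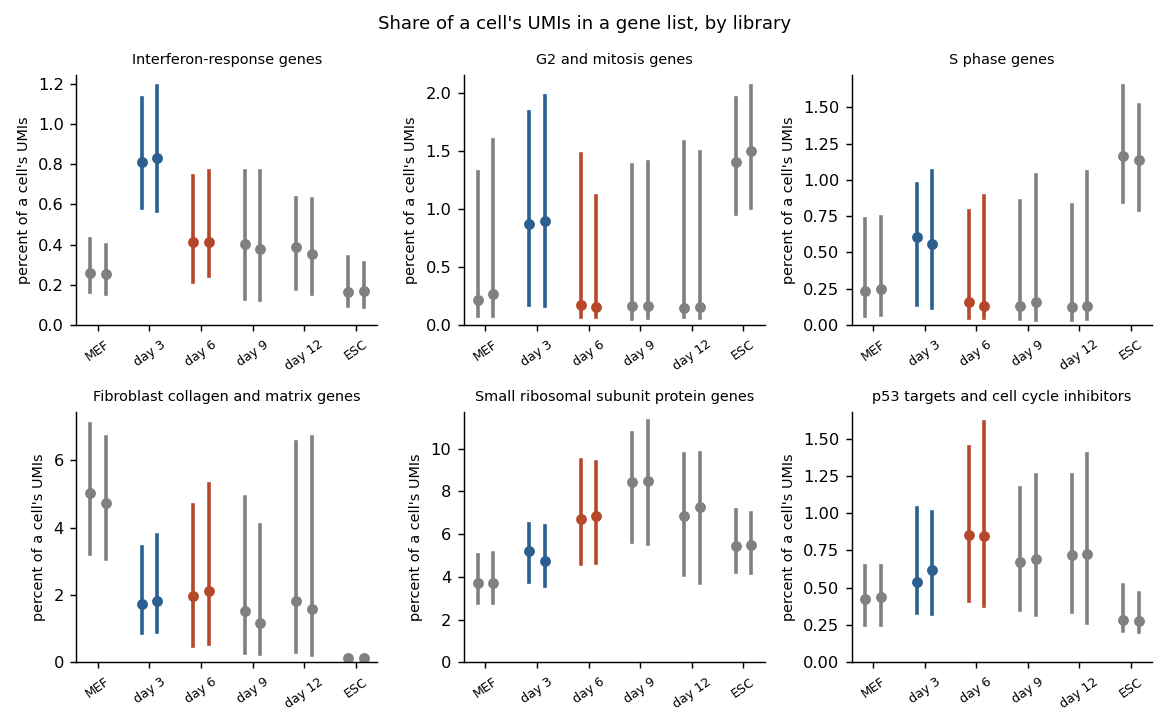
Share of a cell's UMIs in 6 gene lists for untreated MEFs, FBS days 3, 6, 9 and 12 and ESCs, 2 libraries each; the point is the median over cells and the bar runs from the 10th to the 90th percentile. Day 6 (red) has lower medians than day 3 (blue) for interferon and division genes and higher medians for small ribosomal subunit and p53-list genes, while its bars for matrix genes are wider than at day 3.

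Among p53 targets and cell cycle inhibitors, 20 of 46 tested members rose (43.48%) and 9 fell (19.57%), against 18.6% and 19.3% of all genes. The median log2 fold change was 0.23, and fewer members fell without FBS day 6 A. Cdkn1c, an imprinted inhibitor of cyclin-dependent kinases, had 213 and 105 CPM at day 6, against 14.1 and 29.4 CPM at day 3 (log2 fold change 2.91 ± 0.31, edgeR adjusted p = 8.69e-09). Its day 6 libraries differed by about as much as the day 3 pair, and its estimate ran from 2.28 without FBS day 6 A to 3.52 without FBS day 3 B. Cdkn2a, the Ink4a/Arf locus on chromosome 4 (89274471 to 89294653), had 124 and 111 CPM at day 6, against 52.4 and 36.6 CPM at day 3 (1.40 ± 0.18). Cdkn1a, the p53 target p21, had 669 and 748 CPM at day 6, against 529 and 471 CPM at day 3 (0.50 ± 0.10), and this call was lost with listed barcodes kept. Ddit4, a stress-induced inhibitor of mTORC1, and Sesn1, a sestrin, both rose by 2.11 on the log2 scale (± 0.20 and ± 0.28). Ccnd2, cyclin D2, was among the largest gains in CPM of the whole comparison, with 2849 and 2906 CPM at day 6, against 818 and 675 CPM at day 3 (1.95 ± 0.12). Gdf15, a secreted stress factor, fell to 3.90 and 6.15 CPM at day 6, against 19.6 and 32.3 CPM at day 3 (-2.41 ± 0.30). The receptor kinase gene Epha2 (-1.57 ± 0.16) and the polo-like kinase gene Plk2 (-0.95 ± 0.17) fell as well.

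Genes for proteins of the small ribosomal subunit and genes for making ribosomes moved in opposite directions. Of 33 small ribosomal subunit protein genes 24 rose and none fell (median log2 fold change 0.48), and they took a median of 6.70% and 6.84% of a cell's UMIs at day 6, against 5.24% and 4.76% at day 3. Rps28 had 896 and 1049 CPM at day 6, against 570 and 426 CPM at day 3 (log2 fold change 0.96 ± 0.14). Rps19 (0.89 ± 0.12) and Rps26 (0.84 ± 0.12) changed by similar amounts. Of 49 ribosome production genes none rose and 38 fell (median -0.51), a count that dropped to 18 with listed barcodes kept. Odc1, the rate-limiting enzyme of polyamine synthesis and a Myc target, was at 34.9 and 35.1 CPM at day 6, against 150 and 159 CPM at day 3 (-2.14 ± 0.18, edgeR adjusted p = 1e-10). Rrp12 (-1.26 ± 0.20) and the nucleolar helicase gene Ddx21 (-1.12 ± 0.10) fell as well. Eef1a1, a translation elongation factor, rose to 7292 and 7226 CPM at day 6, against 4999 and 5934 CPM at day 3 (0.41 ± 0.09). The listed barcodes had 3.62% and 3.65% of UMIs in the small-subunit list at day 6, against 3.62% and 3.14% at day 3.

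Amino acid and unfolded-protein stress genes were lower at day 6. Of 39 tested members 26 fell and 2 rose (median log2 fold change -0.67). Mthfd2, a mitochondrial folate enzyme, was at 21.2 and 17.6 CPM at day 6, against 117 and 112 CPM at day 3, a 5.79-fold lower level (-2.53 ± 0.17, edgeR adjusted p = 5.16e-13). Phgdh, the first enzyme of serine synthesis, was at 31.8 and 28.5 CPM at day 6, against 116 and 118 CPM at day 3 (-1.94 ± 0.19). Chac1, which degrades glutathione, fell by 1.81 ± 0.46, an estimate that reached -3.13 without FBS day 6 A and -1.08 with listed barcodes kept. Stc2, a stanniocalcin, rose by 1.14 ± 0.32, a call lost without FBS day 3 B. Nupr1, a stress-induced chromatin protein, had 355 and 736 CPM at day 6, against 343 and 323 CPM at day 3, and its rise (0.70 ± 0.25) came to 0.09 without FBS day 6 B (edgeR adjusted p = 0.861). The call was also lost in DESeq2, with listed barcodes kept and without either day 3 library.

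Energy metabolism showed no single direction. Of 76 nuclear-encoded respiratory chain genes 14 rose and 13 fell, both near the shares of all genes, but both counts moved with the libraries used. The number that fell was 3 with listed barcodes kept and 4 to 8 when a library was left out, lowest without FBS day 3 A, 6 without either day 6 library and 8 without FBS day 3 B. The number that rose was 6 without FBS day 3 B and 9 without FBS day 6 B. Cycs, cytochrome c, was at 28.2 and 26.4 CPM at day 6, against 91.8 and 111 CPM at day 3 (log2 fold change -1.88 ± 0.18). Ndufa6, a complex I subunit, rose by 0.85 ± 0.15 and Atp5e, a subunit of ATP synthase, by 0.69 ± 0.13. In glycolysis and hypoxia genes 9 of 41 rose (21.95%) and 11 fell (26.83%), against 18.6% and 19.3% of all genes. Fewer of them fell without FBS day 3 A. Aldoc, an aldolase, had 30.4 and 43.5 CPM at day 6, against 1.44 and 1.25 CPM at day 3 (4.71 ± 0.52, edgeR adjusted p = 1.97e-08), while Pgk1, phosphoglycerate kinase, fell to 94.5 and 90.1 CPM at day 6, against 253 and 337 CPM at day 3 (-1.67 ± 0.19). Pdk1, an inhibitor of pyruvate dehydrogenase, rose by 1.76 ± 0.17. Of 26 cholesterol synthesis genes 6 rose (23.08%) and 2 fell (7.69%), but fewer were called either way without FBS day 6 B. The sterol sensor gene Insig1 rose (1.43 ± 0.30), and the nuclear envelope sterol reductase gene Lbr fell (-1.10 ± 0.12).

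Extracellular matrix genes were mostly higher at day 6 than at day 3. Of 56 tested members 29 rose and 7 fell (median log2 fold change 0.52). With listed barcodes kept, 17 rose and 10 fell, and the number that fell was 3 without FBS day 3 B and 4 without FBS day 6 B. Col1a1, the type I collagen chain, had 613 and 567 CPM at day 6, against 309 and 232 CPM at day 3 (1.12 ± 0.24, edgeR adjusted p = 0.000338). Col15a1, a basement membrane collagen, had 56.1 and 44.4 CPM at day 6, against 7.77 and 4.07 CPM at day 3 (3.08 ± 0.27). Postn, periostin, had 47.7 and 42.2 CPM at day 6, against 4.61 and 1.57 CPM at day 3 (3.83 ± 0.60), with a value of 4.82 without FBS day 3 A and 1.85 with listed barcodes kept. Mmp3, a stromelysin, rose to 31.8 and 34.3 CPM at day 6, against 1.15 and 7.52 CPM at day 3 (2.95 ± 0.60), with a value of 1.002 with listed barcodes kept, 2.12 without FBS day 3 A and 4.79 without FBS day 3 B. Its adjusted p missed the threshold in DESeq2. Without thinning Mmp3 was found in 3.34% and 3.55% of day 6 cells, against 1.74% and 1.67% of day 3 cells. Postn was likewise found in few cells, 4.18% and 5.58% at day 6, against 3.91% and 2.09% at day 3. After thinning the Postn shares were 1.39% and 2.03% at day 6, against 0.87% and 0.418% at day 3. In the listed barcodes Mmp3 was at 521 and 1704 per 1000000 UMIs at day 6, against 221 and 167 per 1000000 UMIs at day 3. Mgp, matrix Gla protein and an inhibitor of calcification (chromosome 6, 136872435 to 136875823), had the largest gain in CPM of the named genes, with 2721 and 3432 CPM at day 6, against 732 and 667 CPM at day 3 (2.13 ± 0.37, edgeR adjusted p = 2.33e-05). In the listed barcodes Mgp was at 8365 and 15870 per 1000000 UMIs at day 6, against 4877 and 5493 per 1000000 UMIs at day 3, and with them kept the value was 0.98 (adjusted p = 0.0717). The proteoglycan gene Vcan (-0.98 ± 0.15), the fibrillar collagen gene Col5a2 (-0.76 ± 0.14) and the fibulin family gene Efemp1 (-0.68 ± 0.12) fell.

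The matrix rise was uneven between cells. The list took a median of 1.98% and 2.12% of a cell's UMIs at day 6, against 1.72% and 1.82% at day 3. Its 10th percentile was lower at day 6, at 0.4999% and 0.5402%, against 0.871% and 0.908% at day 3. Its 90th percentile was higher and lay at 4.67% and 5.31% in the day 6 libraries, against 3.44% and 3.78% at day 3. Untreated MEFs had medians of 5.03% and 4.75%, above both days.

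Among mesenchymal regulators 11 of 34 members were higher at day 6 (32.35%) and 6 lower (17.65%), against 18.6% and 19.3% of all genes. These counts were 7 and 9 with listed barcodes kept and 6 and 3 in DESeq2. The higher count was 7 without FBS day 3 A or FBS day 6 A, and the lower count was 3 without FBS day 3 B. The surface glycoprotein gene Thy1, a fibroblast marker, had 496 and 472 CPM at day 6, against 262 and 309 CPM at day 3 (log2 fold change 0.76 ± 0.16). Twist1, a mesenchymal transcription factor, had 156 and 157 CPM at day 6, against 104 and 118 CPM at day 3 (0.49 ± 0.18), a call lost in DESeq2, with listed barcodes kept and without FBS day 3 A or either day 6 library. Its relative Twist2 fell to 31.8 and 35.1 CPM at day 6, against 78.0 and 72.4 CPM at day 3 (-1.17 ± 0.21). Snai2, which represses epithelial genes, fell by 0.99 ± 0.21, and Osr1 by 1.43 ± 0.32, with a value of -2.38 with listed barcodes kept. Msx1 (1.36 ± 0.29) and Meox2 (1.12 ± 0.25), both homeobox genes, rose. Nt5e, the surface nucleotidase CD73, rose by 1.75 ± 0.34, but had 0.09 with listed barcodes kept.

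Contractile genes were lower on balance, with 13 of 29 lower and 2 higher. Tagln2, transgelin 2, was at 507 and 505 CPM at day 6, against 1683 and 1565 CPM at day 3 (log2 fold change -1.68 ± 0.09, edgeR adjusted p = 5.59e-15). Ankrd1, a target of the YAP coactivator, was at 2.51 and 2.20 CPM at day 6, against 26.5 and 47.6 CPM at day 3 (-3.93 ± 0.57). Actg1, cytoplasmic gamma actin, fell by 2.17 ± 0.31. Actg2, enteric smooth muscle actin, rose to 175 and 231 CPM at day 6, against 89.2 and 90.5 CPM at day 3 (1.16 ± 0.20). Actb, beta actin, was at 6685 and 6253 CPM at day 6, against 9065 and 7103 CPM at day 3, and its call (adjusted p = 0.0297) was lost with listed barcodes kept and without FBS day 3 A or either day 6 library. Actb and Actg1 can share reads with processed copies. The galectin gene Lgals1 (-1.10 ± 0.20), the annexin gene Anxa2 (-0.61 ± 0.16) and the ferritin light chain gene Ftl1 (-0.86 ± 0.09) were among the largest losses in CPM, and Tmsb4x, thymosin beta 4 (0.50 ± 0.11), among the gains.

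TGF-beta response genes did not move as one group. Of 29 tested members 9 were higher (31.03%) and 6 lower (20.69%), against 18.6% and 19.3% of all genes. With listed barcodes kept, 5 were higher and 11 lower. Tgfbi, a matrix protein, had 249 and 228 CPM at day 6, against 76.6 and 90.8 CPM at day 3 (log2 fold change 1.51 ± 0.24). Fstl1, a follistatin-like protein, rose to 2978 and 2952 CPM at day 6, against 1646 and 1748 CPM at day 3 (0.81 ± 0.10). Nog, a BMP antagonist, fell by 1.18 ± 0.27.

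The steepest rises among genes of 50 CPM or more included secreted and membrane proteins. Crym, the thyroid-hormone binding protein mu-crystallin (chromosome 7, 120186380 to 120202111), had 207 and 208 CPM at day 6, against 7.20 and 8.77 CPM at day 3, a 26.0-fold higher level (log2 fold change 4.70 ± 0.23, edgeR adjusted p = 1.79e-15). Shisa3, which retains Wnt and FGF receptors, had 95.1 and 83.5 CPM at day 6, against 4.89 and 2.51 CPM at day 3 (4.57 ± 0.34). Clec3b, tetranectin, had 162 and 128 CPM at day 6, against 7.49 and 7.52 CPM at day 3 (4.28 ± 0.23). In all 3 genes both day 6 libraries stood more than 10 times above both day 3 libraries. Crym was found in 37.3% and 42.1% of day 6 cells, against 6.52% and 7.11% of day 3 cells, and in 1.01% and 1.16% of untreated MEFs without thinning. After thinning these shares were 13.6% and 16.2% at day 6, against 1.30% and 1.67% at day 3, and 0% in both untreated MEF libraries, where a count of 0 allows up to 1.01% and 0.696% of cells. The untreated MEFs had medians of 22796 and 19102 UMIs a cell.

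Apela, a hormone of the apelin receptor, had 59.1 and 55.8 CPM at day 6, against 4.03 and 2.192 CPM at day 3 (log2 fold change 4.18 ± 0.29). Sptssb, a small subunit of serine palmitoyltransferase, had 49.1 and 66.3 CPM at day 6, against 5.76 and 0 CPM at day 3 (4.24 ± 0.40), with a value of 3.30 without FBS day 3 B. Without FBS day 3 A the remaining day 3 library had no UMI of it. Tmprss5, a transmembrane serine protease, rose by 3.99 ± 0.41 (3.38 to 5.16 when a day 3 library was left out). Aspn, asporin, rose by 3.32 ± 0.44, or 2.15 with listed barcodes kept, and Cdh13, a cadherin anchored by lipid, by 3.23 ± 0.20, or 2.45 with them kept. Ppbp, a platelet-type chemokine, fell, to 3.90 and 4.39 CPM at day 6, against 65.9 and 109 CPM at day 3 (-4.40 ± 0.71). With listed barcodes kept its value was -1.59, and in those barcodes it was at 1417 and 72.3 per 1000000 UMIs at day 6, against 523 and 692 per 1000000 UMIs at day 3.

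**Figure D4:**
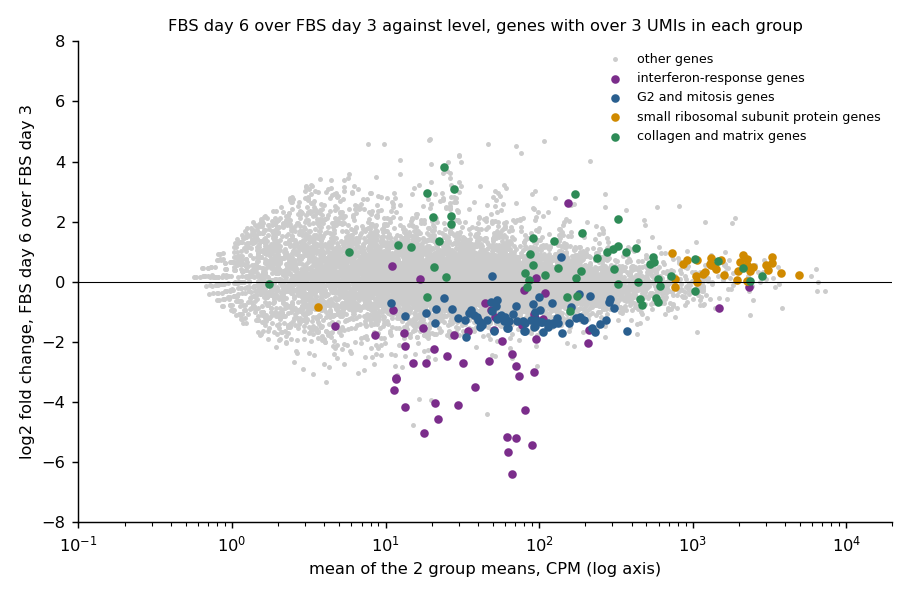
Log2 fold change of FBS day 6 over FBS day 3 against the mean of both group means in CPM (log axis), 1 point per tested gene with over 3 UMIs in each group. Most interferon-response genes (purple) lie below -1, G2 and mitosis genes (blue) lie in a band around -1.26, small ribosomal subunit genes (orange) lie just above 0 at high levels, and matrix genes (green) spread widely.

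Among secreted inflammatory and protease-inhibitor genes 18 of 48 were higher (37.5%) and 10 lower (20.83%), where 18.6% and 19.3% of all genes were called. The share that fell was thus near that of all genes. The lower count was 6 in DESeq2, 3 without FBS day 6 A and also smaller, at 5, without FBS day 3 B. Serpina3n, an acute-phase protease inhibitor (chromosome 12, 104406729 to 104414329), had 396 and 414 CPM at day 6, against 25.9 and 23.8 CPM at day 3 (log2 fold change 4.02 ± 0.26, edgeR adjusted p = 4.78e-13). With listed barcodes kept its value was 2.11. In the listed barcodes Serpina3n was at 449 and 966 per 1000000 UMIs at day 6, against 277 and 306 per 1000000 UMIs at day 3. C3, the central complement protein, had 91 UMIs at day 6 and 1 UMI at day 3, a ratio of 104 with a 95% counting interval of 18.1 to 4132, and its fitted log2 value of 6.34 came to 3.86 with listed barcodes kept, 8.63 without FBS day 3 A and 5.54 without FBS day 3 B. Ptgs2, the inducible cyclooxygenase, ran the other way, with 28.5 and 18.9 CPM at day 6, against 145 and 198 CPM at day 3 (-2.81 ± 0.25, edgeR adjusted p = 2.5e-10). Serpinb9b, a serpin, fell by 2.20 ± 0.27. Il6 was at 5.30 and 4.83 CPM at day 6, against 10.9 and 14.7 CPM at day 3, a fall (-1.32 ± 0.47) whose call was lost in DESeq2 and without FBS day 3 B or either day 6 library, and which came to -2.46 with listed barcodes kept. Igfbp3, which binds insulin-like growth factors, was among the largest gains in CPM, at 1789 and 2080 CPM at day 6, against 490 and 475 CPM at day 3 (2.00 ± 0.19).

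Detoxifying enzymes divided evenly, with 16 of 46 higher and 16 lower, both above the shares of all genes. Aldh3a1, an aldehyde dehydrogenase, had 436 and 518 CPM at day 6, against 67.4 and 57 CPM at day 3 (log2 fold change 2.93 ± 0.17, edgeR adjusted p = 2.3e-14). Mgst1, a membrane glutathione transferase, had 791 and 761 CPM at day 6, against 190 and 184 CPM at day 3 (2.05 ± 0.14). Aldh1a1, which makes retinoic acid, rose by 3.64 ± 0.48, or 3.02 without FBS day 6 B and 2.22 with listed barcodes kept. The NRF2 target Nqo1 was at 75.9 and 50.5 CPM at day 6, against 168 and 157 CPM at day 3 (-1.33 ± 0.17), and Srxn1, sulfiredoxin, fell by 1.62 ± 0.14. Among endosome, lysosome and lipid genes 18 of 39 rose and 3 fell, but 8 rose and 10 fell with listed barcodes kept. The cholesterol exporter gene Abca1 had 217 and 212 CPM at day 6, against 71.7 and 74.5 CPM at day 3 (1.55 ± 0.17), and the lysosomal protease gene Lgmn rose by 1.18 ± 0.14. Fabp5, a fatty acid binding protein (-1.55 ± 0.18), and Lpl, lipoprotein lipase (-1.43 ± 0.17), fell.

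Signalling target lists had calls in both directions, where all tested genes had 18.6% higher and 19.3% lower. Immediate-early and AP-1 genes had 5 of 30 higher, or 3 with listed barcodes kept, and 9 lower. Fosl1, the AP-1 subunit Fra-1, was at 16.7 and 14.5 CPM at day 6, against 88.1 and 86.8 CPM at day 3 (log2 fold change -2.47 ± 0.25, edgeR adjusted p = 4.33e-09), and Jun fell by 0.96 ± 0.16. Socs3, a feedback inhibitor of cytokine signalling, rose to 77.5 and 81.3 CPM at day 6, against 18.7 and 20.7 CPM at day 3 (2.01 ± 0.17). ERK target genes had 7 of 25 each way, with Spry4 (1.68 ± 0.30, or 2.27 without FBS day 3 A) and Etv5 (1.22 ± 0.18) higher and Plaur, the urokinase receptor (-1.77 ± 0.16), and the growth factor gene Ereg (-1.59 ± 0.24) lower, but 3 were higher without FBS day 6 A. Of 26 Wnt target and regulator genes 6 rose and 1 fell (median 0.32), while 3 rose and none fell without FBS day 3 B or FBS day 6 A. Sfrp1, a secreted Wnt antagonist, had 510 and 398 CPM at day 6, against 89.0 and 71.7 CPM at day 3 (2.50 ± 0.18, edgeR adjusted p = 4.23e-12), and Sfrp2 rose by 0.80 ± 0.21. Dkk3 rose by 1.37 ± 0.30, a call lost without FBS day 6 A and with listed barcodes kept, where its value was 0.16. Myc was at 191 and 229 CPM at day 6, against 244 and 320 CPM at day 3, and its call (-0.43 ± 0.14, edgeR adjusted p = 0.013) was lost with listed barcodes kept and without FBS day 3 B or FBS day 6 A. Whether transcripts of the induced factors count toward Myc or Klf4 is not given in the sources used here.

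Core pluripotency genes were near 0 on both days. Nanog had 0 and 0.439 CPM at day 6, against 0.864 and 0.313 CPM at day 3, where the ESC mean was 380 CPM. Pou5f1 had 0.279 and 0 CPM at day 6, against 0 and 0.626 CPM at day 3. Sox2 had 2.23 and 0.439 CPM at day 6, against 0.576 and 0 CPM at day 3, and Sall4 was at 1.12 and 0 CPM at day 6 and had no UMI at day 3. None of these 4 genes passed the test, although Sall4 passed without FBS day 6 B (adjusted p = 0.0464). Klf4 was at 83.1 and 83.0 CPM at day 6, against 89.2 and 87.4 CPM at day 3 (log2 fold change -0.09 ± 0.16, edgeR adjusted p = 0.719). Of 45 tested members of the wider list 12 rose (26.67%) and 2 fell (4.44%), against 18.6% and 19.3% of all genes. The median log2 fold change of the list was 0.00. Tdh, the threonine dehydrogenase used by ESCs, had 31.2 and 32.9 CPM at day 6, against 0.288 and 0.626 CPM at day 3, a ratio of 70.9 with a 95% counting interval of 23.9 to 347. Fbxo15, an early reprogramming marker, had 12.8 and 12.3 CPM at day 6, against 0.576 and 0.313 CPM at day 3 (ratio 28.1, interval 9.23 to 139). Trh, thyrotropin-releasing hormone, had no UMI at day 3 and was at least 48.1-fold higher at day 6, but at 32.4 and 4.83 CPM, and its call was lost without FBS day 6 A (adjusted p = 0.152).

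Of 36 epithelial genes 7 were higher (19.44%) and 4 lower (11.11%), against 18.6% and 19.3% of all genes. The share that rose was thus near that of all genes. Fewer were lower without FBS day 6 A, and 2 were lower with listed barcodes kept. Cdh1, E-cadherin, had 14.8 and 12.7 CPM at day 6, against 4.89 and 5.01 CPM at day 3 (log2 fold change 1.49 ± 0.32, edgeR adjusted p = 0.000421), where the ESC mean was 655 CPM. Epcam was at 1.39 and 0.879 CPM at day 6, against 0.288 and 0 CPM at day 3, and did not pass (adjusted p = 0.135). Ehf, an epithelial ETS factor, had 23.4 and 24.2 CPM at day 6 and no UMI at day 3, at least 52.7-fold higher. Spint2, a protease inhibitor of epithelia, rose by 1.96 ± 0.25, or 0.997 with listed barcodes kept. Krt18, a simple epithelial keratin on chromosome 15 (102028180 to 102032027), went the other way, with no UMI at day 6, against 25.3 and 20.1 CPM at day 3, at least 44.5-fold lower. Krt19 was at 164 and 170 CPM at day 6, against 277 and 266 CPM at day 3, a call lost with listed barcodes kept and without FBS day 6 A. Of 17 epidermal genes 3 rose (17.65%) and 2 fell (11.76%). Il1rn, the interleukin 1 receptor antagonist, had 624 and 613 CPM at day 6, against 143 and 94.3 CPM at day 3 (2.38 ± 0.30, edgeR adjusted p = 3.45e-07), and Sbsn, suprabasin, fell by 1.10 ± 0.29. The 5 keratinocyte markers held 7 and 2 UMIs in total at day 6, against 4 and 9 UMIs at day 3. Of these markers, Krt5 was at 0 in both day 6 libraries and in FBS day 3 A, and others had UMIs.

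Lists of other lineages differed in their share of calls, beside 18.6% higher and 19.3% lower over all tested genes. Hox genes had 4 of 32 higher, among them Hoxa10 (log2 fold change 0.74 ± 0.19), and 1 lower. The higher count was 1 without FBS day 3 B and in DESeq2, and 2 without FBS day 3 A or FBS day 6 A. Germline genes had 5 of 49 higher, below the share of all genes, or 1 without FBS day 3 A and in a fit of the 4 libraries alone, and 2 without FBS day 3 B or FBS day 6 B. Tdrd7 (-1.19 ± 0.18) was the single member that fell. In neural genes 9 of 36 rose and 3 fell, with Nes, nestin, at 37.4 and 46.1 CPM at day 6, against 146 and 123 CPM at day 3 (-1.71 ± 0.14), and Tubb3, a neuronal tubulin, at -2.04 ± 0.34. Penk, proenkephalin, rose to 137 and 192 CPM at day 6, against 33.1 and 32.6 CPM at day 3 (2.31 ± 0.28), but turned to -0.27 with listed barcodes kept, which held it at 760 and 2592 per 1000000 UMIs at day 6, against 978 and 1342 per 1000000 UMIs at day 3. Endothelial genes had 4 of 21 each way (19.05%), near the shares of all genes. Among them Apln (-1.08) and Ets1 fell, and the Apln call was lost in DESeq2 and without FBS day 3 B or FBS day 6 A. Cd34, a surface sialomucin also found on progenitor cells, had 742 and 810 CPM at day 6, against 532 and 506 CPM at day 3 (0.58 ± 0.11), and Ecscr rose by 1.70 ± 0.13. In the macrophage and blood list 2 of 23 rose, among them Laptm5 (0.84 ± 0.18). Lyz2, lysozyme, was at 2.23 and 65.9 CPM at day 6, against 5.18 and 5.33 CPM at day 3 (adjusted p = 0.0541), high in the library with the macrophage-marker cell. It passed as higher with a replicate block (adjusted p = 0.0159), in a fit of the 4 libraries alone (0.014), with no filter (1.6e-08) and without FBS day 6 A (0.00468). Members of that list that passed as higher numbered 7 without FBS day 6 A, 6 with no filter and 4 in a fit of the 4 libraries alone, and 5 fell with listed barcodes kept.

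Lists of chromatin regulators differed from each other. Of 22 histone lysine demethylases and Tet enzymes 12 rose and 2 fell (median log2 fold change 0.45). Tet2, a 5-methylcytosine oxidase on chromosome 3 (133463679 to 133545139), had 30.7 and 26.4 CPM at day 6, against 7.77 and 5.95 CPM at day 3 (2.06 ± 0.25, edgeR adjusted p = 9.19e-08). Kdm6b, an H3K27 demethylase, had 91.8 and 77.7 CPM at day 6, against 44.6 and 31.6 CPM at day 3 (1.16 ± 0.16), and Kdm7a rose by 1.06 ± 0.16. Jmjd6 fell by 0.73 ± 0.13. Among 38 methylation and histone methyltransferase genes 6 rose and 9 fell (15.8% and 23.7%), near the 18.6% and 19.3% of all genes. The number that fell was 4 with listed barcodes kept and 5 without FBS day 6 B, and 3 rose without FBS day 3 A. Dnmt1, the maintenance DNA methyltransferase, was at 84.2 and 85.7 CPM at day 6, against 187 and 177 CPM at day 3 (-1.10 ± 0.13), and Uhrf1, which brings it to replicated DNA, was at 56.9 and 66.3 CPM at day 6, against 153 and 144 CPM at day 3 (-1.28 ± 0.13). Both are known to peak in S phase, and 50 of 58 S phase genes fell in the same libraries; their part in this result was not tested. The AF9 gene Mllt3 (1.15 ± 0.12) and the H3K27 methyltransferase gene Ezh1 (0.91 ± 0.20) rose. Of 40 imprinted genes 15 rose and 1 fell, including Nnat, neuronatin, at 127 and 107 CPM at day 6, against 42.9 and 29.1 CPM at day 3 (1.70 ± 0.18), and Slc38a4, an amino acid transporter, which fell by 0.99 ± 0.18.

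The neighbouring intervals were fitted in the same model. Day 9 against day 6 called 1225 genes (9.26%), and day 3 against untreated MEFs called 5383 genes (40.7%), of 13228 genes tested in each. These comparisons share the day 6 or the day 3 libraries with the main one, so their values are given side by side only. Ifi44 was at 1.94 CPM in untreated MEFs on average, and its log2 fold change was 6.11 ± 0.66 at day 3 over MEFs and 0.23 at day 9 over day 6. Isg15 had 5.20 ± 0.68 at day 3 over MEFs and 0.91 (adjusted p = 0.797) at day 9 over day 6. For both genes day 3 had the highest mean among untreated MEFs and days 3, 6 and 9. Ifitm1 rose at day 3 over MEFs too (4.38 ± 0.39), and its value was 0.03 at day 9 over day 6 (adjusted p = 0.976). Mki67 was 0.55 ± 0.13 higher at day 3 than in MEFs and did not differ detectably at day 9 from day 6 (-0.33, adjusted p = 0.272). Crym rose again at day 9 over day 6 (0.80 ± 0.15, edgeR adjusted p = 0.000953), as did Cdkn2a (0.68, edgeR adjusted p = 0.00814) and Shisa3 (0.97 ± 0.20). Ptgs2 fell at each interval, by 2.59 ± 0.19 at day 3 over MEFs and by 1.36 at day 9 over day 6 (edgeR adjusted p = 0.0314). Mthfd2 did not change detectably at day 9 over day 6 (0.20, adjusted p = 0.65), and Serpina3n was at 25.4 CPM in untreated MEFs, and fell at day 9 (-0.80, edgeR adjusted p = 0.0121).

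**Figure D5:**
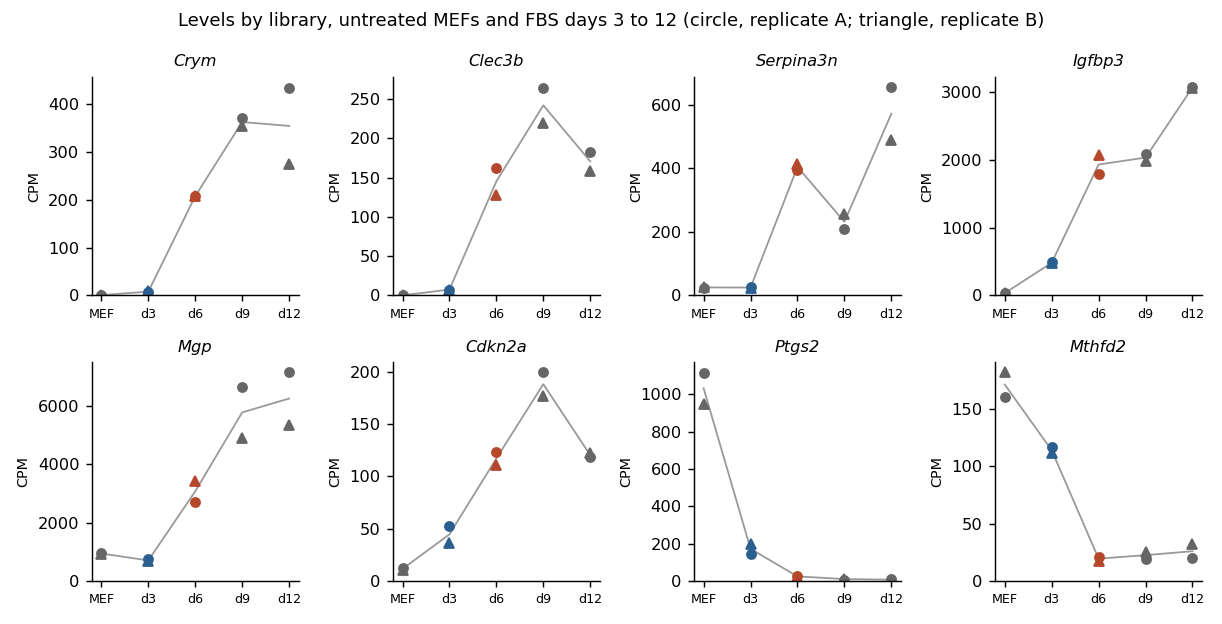
Level in CPM of 8 genes in untreated MEFs and at FBS days 3, 6, 9 and 12, with a circle for replicate A, a triangle for replicate B and a line through the group means. Crym, Clec3b, Igfbp3, Mgp and Cdkn2a step up at day 6 (red) over day 3 (blue); Ptgs2 and Mthfd2 are at 28.5 CPM or below in both day 6 libraries.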

How the data were processed

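Single-cell 3' libraries (ddSEQ, SureCell kit, per the labels' protocols) were deposited by the authors as UMI counts, whole numbers for each gene in each cell. The submitters' processing notes name bcl2fastq 2.19, STAR and mm10; which annotation and counting program were used is not stated in the sources. A barcode on the deposited feeder table (683 distinct) was dropped in any library that held it, and 3 columns of per-sample values in that table were not used. The tables held 24421 genes, 18897 with a UMI and none encoded by mitochondria. No doublet caller was run.

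Counts of kept cells were summed per library and fitted with edgeR 4.0.16 (R 4.3.3; TMM, filterByExpr, quasi-likelihood test) in one model of all 32 libraries and 16 groups. A gene was called where its adjusted p (Benjamini-Hochberg, all tested genes) lay under 0.05. A standard error is the log2 fold change divided by the square root of the F statistic. A group with no UMI was set against 3 UMIs over the group, and 1 to 3 UMIs give a ratio with an exact 95% interval; both cover counting error only. For shares of cells, each cell was thinned to 1000 UMIs. With 2 libraries against 2 an exact permutation test cannot go below 0.333, so shares were not tested. Gene positions are from GENCODE vM21 and promoters from RefSeq, which held 10052 of the 13228 tested genes by symbol.

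The genes and the 31 lists were chosen with earlier results of these data known, so they are no independent support. A rule picked the 183 genes from which those in the text come: the 10 most raised and 10 most lowered called genes with 50 CPM or more in the higher group and no overlap between groups, the 6 largest differences in CPM each way (both leaving out ribosomal-protein, mitochondrial, predicted Gm and Rik genes), a panel of 15 genes, and up to 3 called members each way of each list with 10 CPM or more. Replicates differed by more than sampling noise (chi-square per degree of freedom 2.23 at day 6 and 3.46 at day 3). In simulated counts with the same library sizes (13228 genes), only the genes counted next were changed between the days. The test found 41.8% of 67 genes given a 1.5-fold change, 59.7% of 67 given 2-fold and 83.3% of 66 given 4-fold. Of its 127 calls 4 were false. Far fewer genes were changed there than the 5009 called in the data, so these rates need not hold for the data. The fit was repeated with RLE factors, without the filter, in DESeq2 1.42.0, with a replicate block, with feeder barcodes kept, on cells with at least 1000 UMIs, on the 4 libraries alone and without each library. Shares and figures used Python 3.11.15, numpy 2.4.6, pandas 2.3.3, scipy 1.17.1 and matplotlib 3.10.9. Some genes that the rule picked are not reported here.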

Additional observations from a re-analysis of the deposited data

How the results depend on the processing

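The count of called genes stayed within 1.5 times its value of 5009 under all alternatives tried: 4991 under RLE scaling, 4885 when no gene was filtered, 4368 with listed feeder barcodes kept, 5015 with cells of 1000 UMIs or more, 4791 in a fit of the 4 libraries alone, 3893 in DESeq2 (which gave no adjusted p for 5862 genes) and 3641 to 4031 when a library was left out. With the replicate letter as a block the count was 4982, with 2453 higher and 2529 lower. Whether the letters pair the samples was not settled. Deviations of A from B at day 6 and day 3 had a correlation of -0.00179 across genes. This value cannot exclude pairing, because genes with few UMIs count as much as the others. Of 183 named genes 1 reversed, Penk, at -0.27 with listed barcodes kept. Calls were lost for 17 named genes with listed barcodes kept, 28 when a library was left out and 10 in DESeq2; the cause was not tested. Calls were gained for Lyz2, with a replicate block, without a filter, in the fit of the 4 libraries and without FBS day 6 A, and for Sall4 without FBS day 6 B. Where a library was left out, the lone sample is assumed to vary like the other groups. Keeping listed barcodes changed counts by over 1.5 times for matrix, mesenchymal, ribosome production, lysosome, TGF-beta, respiratory chain, chromatin methylation, immediate-early, epithelial and macrophage genes, and leaving out a library did so for other lists, as given with each. The numbers that fell stayed within 1.5 times with listed barcodes kept for interferon, S phase and G2 and mitosis genes, as did the number of small ribosomal subunit genes that rose. List counts of 2 or fewer moved by up to 2 members, except in macrophage genes. Genes under about 5 CPM rest on few UMIs.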
